A study of Homo sapiens with 16 samples.

Results

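RNA from HCC70 cells carrying short hairpin RNAs (shRNAs) against RBPJ was compared directly with RNA from HCC70 cells carrying hairpins against FOXA1. HCC70 is an established line grown from a human breast tumour and belongs to the basal-like, triple-negative class. The comparison rests on 4 of the 16 libraries of the study: 2 with RBPJ hairpins and 2 with FOXA1 hairpins. Genes were kept where at least 2 of these 4 libraries had a value of 5 or more, which left 9886 of 11282 genes. Every group shares the cell line, the medium and the infection step, per the labels. The 6 libraries with hairpins named shRFP, shLACZ and shLUC (2 each) stand beside the comparison as hairpin controls, and the 2 libraries named plko are shown apart from them. The remaining 4 libraries, with KLF5 or NFIB hairpins, entered the estimate of the spread, and a few list medians are given for them. Both libraries of each construct carry different construct identifiers in the labels, so their spread includes any difference between hairpins. No hairpin is repeated in these groups, so p-values measure how far libraries with different hairpins vary, technical spread included. The labels also leave out the time after infection, the vector's promoter and any selection of infected cells.

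RBPJ is the DNA-binding factor of the Notch pathway. Without a signal it holds corepressors on its target genes, and after a Notch receptor is cleaved it binds the receptor's intracellular part and activates them. FOXA1 is a forkhead pioneer factor that opens chromatin at luminal and hormone-responsive genes of the breast. Sterol genes are controlled by SREBP factors, which cells activate when sterols run short, while S100 proteins of the calgranulin kind, clade B serpins and kallikrein proteases mark stressed and differentiating squamous epithelium.

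Totals recovered from the deposited values were 3090666 and 1762664 reads with RBPJ hairpins and 1200672 and 537502 reads with FOXA1 hairpins, within a range of 375713 to 3090666 over all 16 libraries. Depth therefore differed between the groups compared: 1 read was worth 0.249 and 0.474 units of the normalised value with RBPJ hairpins, against 0.658 and 1.50 with FOXA1 hairpins. Floors and read numbers cover counting error only. The epithelial and basal markers EPCAM, CDH1, KRT5, KRT17, EGFR, CDH3 and TRIM29 were all present. Their summed value was 4430 and 8290 with RBPJ hairpins and 8260 and 5390 with FOXA1 hairpins, against 5000 to 6750 in the hairpin controls. ESR1, PGR and ERBB2, receptors that define other breast cancer types, summed to at most 37 in these 4 libraries. Of 11 fibroblast and endothelial markers 5 had values, with sums of 27.8 and 35.6 with RBPJ hairpins and 17.8 and 28.5 with FOXA1 hairpins, against 13.2 to 31.5 in the hairpin controls.

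The targeted transcripts were examined before any other gene. RBPJ itself (ENSG00000168214) was at 43.3 in the library labelled RBPJ 1 and 8.53 in RBPJ 2, against 51.4 and 49.6 in FOXA1 1 and FOXA1 2. The hairpin controls ran from 43.1 through a median of 47.7 to 54.9. The library labelled RBPJ 1 therefore lay inside the control range, at 89.5% of the control mean, and only RBPJ 2 lay below it, at 17.7%. FOXA1 (ENSG00000129514) was at 65.1 and 89.1 in the libraries labelled RBPJ 1 and RBPJ 2, against 24.4 and 58.6 with FOXA1 hairpins, with hairpin controls from 67.6 through 95.8 to 160.1. Both FOXA1 libraries lay below every hairpin control, at 24.4% and 58.6% of the control mean. The library labelled RBPJ 1 did so too, at 65.2%, so lying below the controls does not by itself set FOXA1 2 apart. Neither transcript passed over all genes, with a log2 difference of -1.32 ± 0.44 (SE) and a limma adjusted p of 0.44 for RBPJ, and 0.99 ± 0.37 and 0.552 for FOXA1. An exact permutation test of 2 against 2 libraries gave p = 0.333 for each, 2-sided, which is the smallest value that 6 arrangements allow. Since the RBPJ transcript does not mark the library labelled RBPJ 1 as depleted, each result below is given with both RBPJ libraries in view. Without that library the difference of the RBPJ transcript was -2.43. This value rests on RBPJ 2 alone (18 reads) and follows from leaving out the library with the higher RBPJ value, so it is no separate evidence of depletion. The median absolute log2 difference between hairpins was 0.39 for RBPJ and 0.31 for FOXA1, and 163 and 105 genes differed by more than 2. The chi-square of the reads per degree of freedom between hairpins was 18.8 for RBPJ and 2.39 for FOXA1. Both pairs therefore differed by more than counting error, the RBPJ pair by more. Depth raises this measure, and the RBPJ libraries are deeper.

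Directly compared, 8 genes differed between RBPJ and FOXA1 hairpins, which is 0.0809% of 9886 genes tested (limma with a mean-variance trend, Benjamini-Hochberg adjusted p under 0.05). Of these, 7 were lower with RBPJ hairpins (0.0708%), among them the squamous genes SERPINB4, SERPINB3, S100A7, S100A8 and S100A9 and the poly(A)-binding protein gene PABPC1. The luminal gene AGR2 alone was higher with RBPJ hairpins (0.0101%). An unadjusted p under 0.05 was reached by 722 genes (7.3%), of which 333 were higher (3.37%) and 389 lower (3.93%). The 2 groups did not overlap for 1767 genes higher with RBPJ hairpins (17.9%) and 1665 lower (16.8%), so a gene whose libraries merely separate is common in a comparison of this size. The calls also depended on single libraries: 154 genes passed without the library labelled RBPJ 1 (30 higher and 124 lower), 9 without RBPJ 2, 21 without FOXA1 1 and 3 without FOXA1 2. Reads of every deeper library were also thinned to the total of FOXA1 2 (537502), while plko 1 kept its smaller total of 375713. With these reads, 7 of the 8 genes passed again in limma, every gene named here among them.

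**Figure D1:**
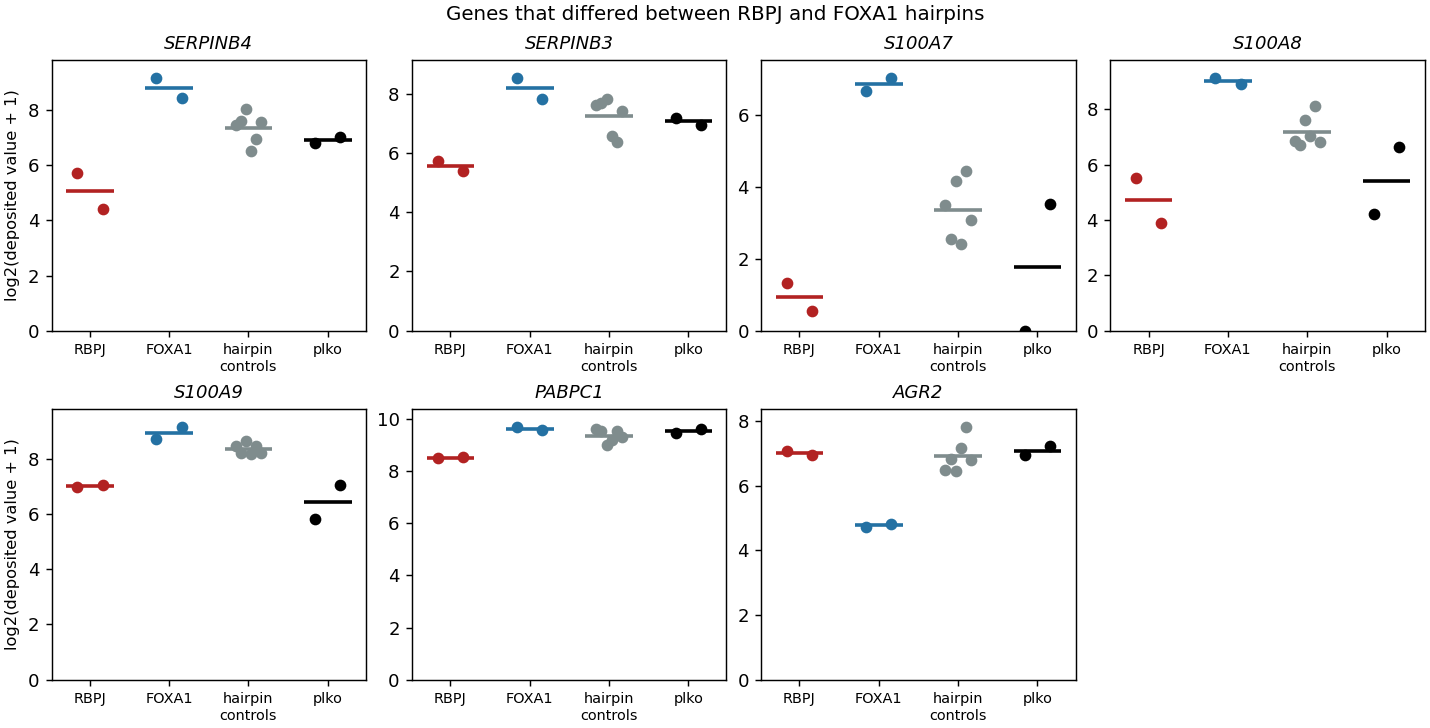
Values of 7 of the genes that passed, as log2 of the deposited value plus 1 (vertical axis), for RBPJ hairpins, FOXA1 hairpins, the 6 hairpin controls and plko; each point is a library and each bar a group mean. The RBPJ points lie below the FOXA1 points in 6 panels and above them for AGR2.

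Among the calgranulin-type S100 genes, S100A7 and S100A8 differed by more than S100A9. S100A7 (ENSG00000143556), psoriasin, an antimicrobial protein of inflamed skin, was at 1.49 and 0.474 in the libraries labelled RBPJ 1 and RBPJ 2, which are 6 reads and 1 read. With FOXA1 hairpins it was at 101 and 129, which are 153 and 86 reads. Hairpin controls ran from 4.28 through a median of 8.84 to 20.8, so that both RBPJ libraries lay below all of them and both FOXA1 libraries above all of them. The log2 difference was -5.91 ± 0.82 (limma adjusted p = 0.0033), and with so few reads its size depends on the pseudocount, being -6.36 with 0.5 and -4.32 with 5. In bulk RNA, fewer cells that make a transcript and less of it per cell cannot be told apart.

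S100A8 (ENSG00000143546), a subunit of calprotectin, was at 45.3 and 13.8 in the libraries labelled RBPJ 1 and RBPJ 2, against 565 and 487 with FOXA1 hairpins. The hairpin controls lay between these groups, at 104, 122 and 275 for the lowest, the median and the highest. The log2 difference was -4.33 ± 0.63, with a limma adjusted p of 0.00422. S100A9 (ENSG00000163220), the other calprotectin subunit, was at 125 and 132 in the RBPJ libraries and 413 and 565 in the FOXA1 libraries, with hairpin controls at 284, 320.5 and 399.9. It differed by -1.90 ± 0.35 (limma adjusted p = 0.0361), and again the controls lay between the groups without touching either. The plko libraries were at 0 and 10.5 for S100A7, 17.7 and 97.9 for S100A8, and 55.2 and 130.1 for S100A9. The first of them lay below every hairpin control for these 3 genes, while the second lay inside the control range for S100A7 and below it for S100A8 and S100A9. Myeloid cells also make S100A8 and S100A9. Of 8 leukocyte markers 3 had values, and PTPRC, the pan-leukocyte marker, was at 3.23 and 2.37 with RBPJ hairpins and 0.658 and 0 with FOXA1 hairpins. The summed leukocyte markers, mostly CD74, were 298 and 78.2 with RBPJ hairpins and 130 and 126 with FOXA1 hairpins, against 83 to 308 in the hairpin controls.

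The 250 bases before the annotated start of these 3 genes are shown because the genes moved together and each window holds TGGGAA, the core sequence that RBPJ is known to bind, here in capitals. The windows are from RefSeq on GRCh38.p14, on the strand of each gene, and are not in the build of the deposited values. They span chr1:153391189-153391438 (minus strand) for S100A8, chr1:153460652-153460901 (minus strand) for S100A7 and chr1:153357604-153357853 (plus strand) for S100A9. The match starts 173 bases upstream of the start in S100A8, 50 in S100A7 and 179 in S100A9.
S100A8: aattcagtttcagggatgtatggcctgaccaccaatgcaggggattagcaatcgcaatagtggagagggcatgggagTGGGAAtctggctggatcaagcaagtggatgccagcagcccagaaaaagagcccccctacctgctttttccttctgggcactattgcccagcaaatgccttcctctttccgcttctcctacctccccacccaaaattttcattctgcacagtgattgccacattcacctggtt
S100A7: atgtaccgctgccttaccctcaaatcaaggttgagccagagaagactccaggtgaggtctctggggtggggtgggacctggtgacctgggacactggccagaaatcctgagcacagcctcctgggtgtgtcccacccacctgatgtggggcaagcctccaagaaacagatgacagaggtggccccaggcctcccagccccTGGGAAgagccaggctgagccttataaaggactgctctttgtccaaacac
S100A9: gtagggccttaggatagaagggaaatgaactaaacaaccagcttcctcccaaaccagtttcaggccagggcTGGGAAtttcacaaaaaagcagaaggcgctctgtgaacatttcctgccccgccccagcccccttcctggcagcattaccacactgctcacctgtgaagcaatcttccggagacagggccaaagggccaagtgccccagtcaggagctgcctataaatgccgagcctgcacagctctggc
On either strand, TGGGAA occurred in the windows of 9 of 23 squamous genes with a window (39.1%), against 24.7% of 8185 tested genes with one. Such a match describes the letters only and is neither a measured site nor a cause.

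The neighbouring serpin genes moved the same way. SERPINB4 (ENSG00000206073), a squamous cell carcinoma antigen that inhibits proteases, was at 51.2 and 20.4 in the libraries labelled RBPJ 1 and RBPJ 2, against 579 and 350.0 with FOXA1 hairpins. Hairpin controls ran from 91.0 through 184 to 263, between the groups. The log2 difference was -3.76 ± 0.45, with a limma adjusted p of 0.000701, the smallest of all genes tested. SERPINB3 (ENSG00000057149), its close relative, was at 52.5 and 41.3 in the RBPJ libraries and 372 and 227 in the FOXA1 libraries, with hairpin controls at 81.3, 183 and 228. Here only the lower FOXA1 library fell inside the control range, and the difference was -2.62 ± 0.40 (limma adjusted p = 0.00677). Reads of these genes may not be fully separable, since 97 of 451 windows of 50 bases (21.5%) in the last 500 bases of the SERPINB4 transcript also occur in SERPINB3 (GENCODE 29), so each gene's value is uncertain on its own.

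Their promoters are nearly the same sequence, which is why both are printed. The windows are the 150 bases before each start in RefSeq on GRCh38.p14, chr18:63644257-63644406 for SERPINB4 and chr18:63661894-63662043 for SERPINB3, both on the minus strand. Capitals mark the 3 of 150 bases (2%) that differ. Unlike the windows of the S100 genes above, these shorter windows do not hold TGGGAA on either strand.
SERPINB4: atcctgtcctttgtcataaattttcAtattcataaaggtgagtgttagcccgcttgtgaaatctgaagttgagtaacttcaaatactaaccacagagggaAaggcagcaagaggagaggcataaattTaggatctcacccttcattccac
SERPINB3: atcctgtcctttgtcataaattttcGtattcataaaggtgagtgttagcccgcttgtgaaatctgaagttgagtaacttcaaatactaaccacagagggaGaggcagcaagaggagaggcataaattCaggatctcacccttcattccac

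Against the hairpin controls alone, 4 genes passed with RBPJ hairpins (0.0405% of 9886), each lower than the controls: SERPINB4 at -2.30 (limma adjusted p = 0.0455), and CLEC7A, SQLE and DHCR7, each with 0.0497. With FOXA1 hairpins 1 gene passed (0.0101%), which was AGR2 at -2.15 (limma adjusted p = 0.0168). The other squamous genes named above did not pass on either side of the controls. S100A8, for instance, stood at -2.48 with RBPJ hairpins (0.124) and 1.85 with FOXA1 hairpins (0.504), and SERPINB3 at -1.68 (0.0889) and 0.93 (0.628), as limma adjusted p. Both contrasts use the same 6 control libraries and are not independent of each other.

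Of the 60 squamous differentiation genes listed, 33 were in the table and 32 passed the filter. Of these, 5 were called, all lower with RBPJ hairpins, beside 0.0708% of all genes. The median log2 difference of the 32 was -0.58, against 0.02 over all genes tested, with 22 below 0. Groups did not overlap for 10 members lower (31.2%) and 1 higher (3.12%), beside 16.8% and 17.9% of all genes. Some members passed the filter only through the FOXA1 libraries, S100A7 and SBSN among them, so these figures describe the members that passed and support nothing further. The list median moved to -0.09 without the library labelled RBPJ 1 and to -0.79 without RBPJ 2.

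The kallikreins, skin proteases that release surface cells, were split between the RBPJ libraries. KLK7 was at 16.9 and 41.3 in the libraries labelled RBPJ 1 and RBPJ 2 and 111 and 152 in the FOXA1 libraries, with a difference of -2.25 ± 0.49 that missed the threshold (limma adjusted p = 0.117). It passed without RBPJ 2 (-2.87, adjusted p = 0.0454). KLK10 was at 19.4 in the library labelled RBPJ 1 and 259 in RBPJ 2, which lie on both sides of the 136 and 139.7 with FOXA1 hairpins. KLK5 (120.1 and 292 with RBPJ hairpins, 267 and 368 with FOXA1 hairpins) and KLK6 (4.48 and 12.3, against 11.9 and 42.1) overlapped between the groups.

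Some genes of the cornified layer and of activated keratinocytes showed the same split, and others lay close together in all 4 libraries. KRT6A, a keratin of activated epidermis, was at 99.2 in the library labelled RBPJ 1 and 1251 in RBPJ 2, against 1331 and 757 with FOXA1 hairpins. PI3, the elastase inhibitor elafin, was at 119 and 685, against 651 and 459.6. SPRR2A, an envelope precursor, was at 1.74 and 78.2 in the RBPJ libraries and 34.9 and 42.1 in the FOXA1 libraries. SPRR1B, another precursor, was at 0.995 (4 reads) and 115 (243 reads), against 18.4 and 7.51. In each case the library labelled RBPJ 1 was the lowest of the 4 and RBPJ 2 was at or above a FOXA1 library, so the groups overlapped and the direction of the difference turned for KRT6A (0.32), PI3 (0.32), KLK10 (0.90) and SPRR2A (1.01) without the library labelled RBPJ 1. KRT6A and SPRR2A have close family copies, and their counts may include reads of those copies. Without that split were CSTA, a protease inhibitor of the envelope, at 75.1 and 41.3 with RBPJ hairpins and 59.3 and 79.6 with FOXA1 hairpins, and PPL, periplakin, at 66.6 and 53.6, against 53.3 and 81.1. CNFN, cornifelin, was at 23.6 and 18.0, against 19.8 and 31.5, CALML5, a calmodulin-like skin protein, at 76.8 and 71.6, against 58.6 and 75.1, and the keratin KRT10 at 79.1 and 76.3, against 77.7 and 55.6. Groups overlapped for these 5 genes, with differences from -0.30 (CSTA) to 0.24 (KRT10), and RBPJ 2 was the lower RBPJ library in each. The plko libraries were low for some of the split genes, with 64.0 and 276 for KRT6A and 6.62 and 27.3 for KLK10.

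A few members separated the groups in all 4 libraries without passing. Involucrin (IVL), the envelope scaffold, was at 6.47 and 25.1 with RBPJ hairpins and 27.7 and 25.5 with FOXA1 hairpins (-0.98 ± 0.53, limma adjusted p = 0.714). RBPJ 2 lay below FOXA1 2 by less than 1 read in FOXA1 2 is worth (1.50), so for IVL only the library labelled RBPJ 1 stood clearly lower. The desmosomal cadherin DSG3 was at 13.2 and 12.8, against 22.4 and 24.0, and EMP1, an epithelial membrane protein, at 305 and 294, against 482 and 533. SBSN, suprabasin, was at 0.497 and 4.27 with RBPJ hairpins and 13.2 and 10.5 with FOXA1 hairpins, from 2 to 20 reads. FOXA1 libraries stood above every hairpin control for SBSN (highest control 3.40), whereas for IVL, DSG3 and EMP1 they stood within the control range.

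**Figure D2:**
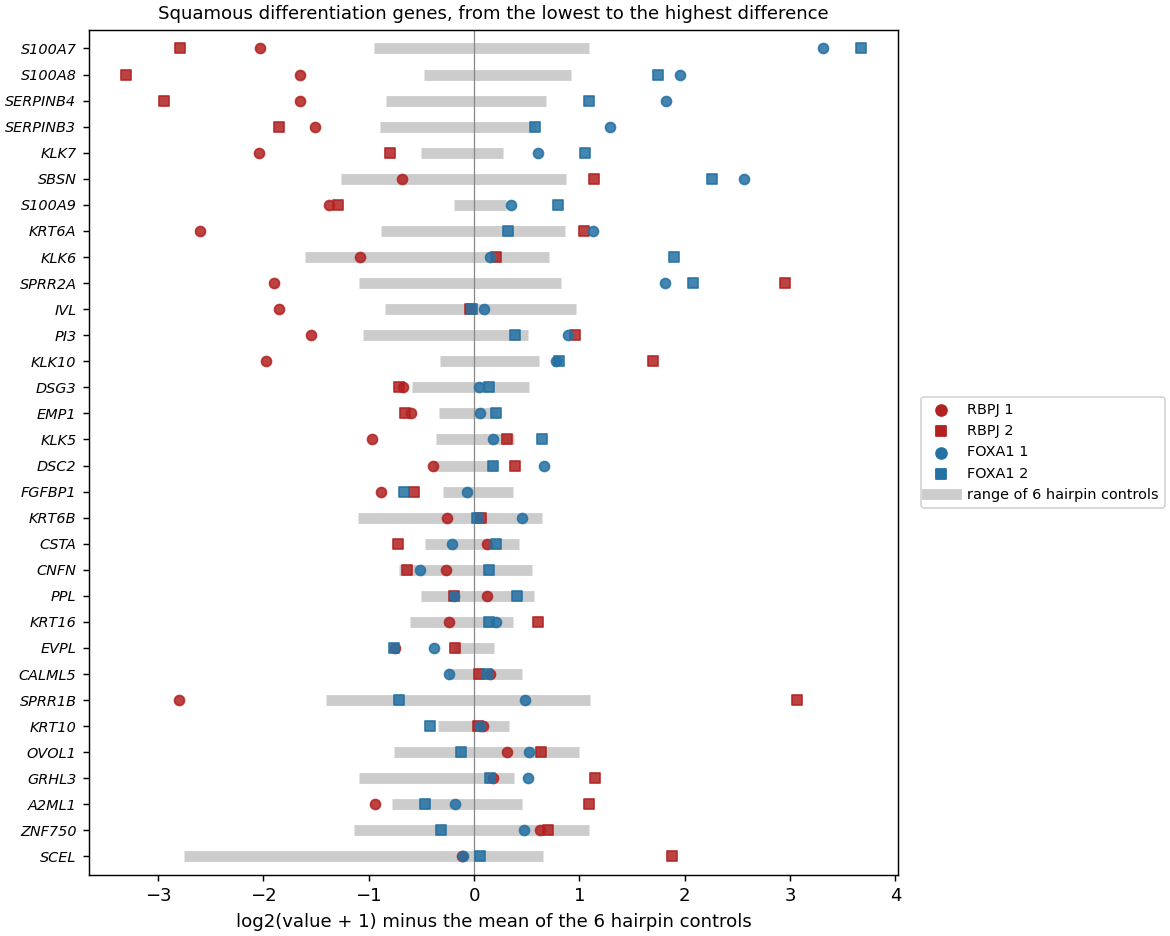
Squamous genes that passed the filter, one row each, as log2(value + 1) minus the mean of the 6 hairpin controls (horizontal axis); circles are hairpin 1 and squares hairpin 2, red for RBPJ and blue for FOXA1, and grey bars span the controls. From S100A7 down to SERPINB3 red lies left of the grey bars and blue to the right of or at their upper end, while for KRT6A, SPRR2A, PI3, KLK10 and SPRR1B the red circle and red square lie on opposite sides of the controls.

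Mature luminal genes had no common direction. A few secretory, surface and keratin genes separated the groups. The share higher without overlap was 20%, FOXA1 itself included, which is near the 17.9% of all genes. AGR2 (ENSG00000106541), a disulfide isomerase of the secretory pathway that luminal cells express, was at 135 and 124 in the libraries labelled RBPJ 1 and RBPJ 2, against 25.7 and 27.0 with FOXA1 hairpins. Hairpin controls ran from 85.9 through 112 to 225 and plko was at 124 and 148, so that the RBPJ libraries lay among the controls and the FOXA1 libraries below all of them. The difference was 2.25 ± 0.39 (limma adjusted p = 0.0223). It was of like size but missed the threshold without RBPJ 2 (2.31, 0.0674), FOXA1 1 (2.22, 0.0806) or FOXA1 2 (2.29, 0.331), each a limma adjusted p.

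CEACAM6, an adhesion molecule of the cell surface, was at 174 and 485 with RBPJ hairpins and 105 and 94.6 with FOXA1 hairpins, with hairpin controls at 94.3, 257 and 278. The groups separated (1.53 ± 0.40, limma adjusted p = 0.234), with FOXA1 libraries at the bottom of the control range and RBPJ 2 above it. Its value may hold reads of close family members. KRT7, a simple epithelial keratin, was at 1202 and 2029 with RBPJ hairpins and 993 and 1143 with FOXA1 hairpins. KRT8, at 109.9 and 395 against 112 and 192, and its partner KRT18, at 31.6 and 114 against 32.9 and 43.6, were high in RBPJ 2 alone. Without the library labelled RBPJ 1, KRT8 (1.42, limma adjusted p = 0.0292), KRT18 (1.56, 0.0247) and CEACAM6 (2.27, 0.00305) passed, and without RBPJ 2 the differences of KRT8 and KRT18 were -0.41 and -0.26. KRT19 (922 and 1599, against 857 and 981) overlapped, while CLDN4, a tight junction claudin, separated the groups at 528 and 607 against 378 and 429.6. AZGP1, a secreted glycoprotein, went against these genes in RBPJ 2: it was at 511 in the library labelled RBPJ 1 and 124 in RBPJ 2, against 282 and 560.3.

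Of 46 mature luminal genes listed, 34 were in the table and 25 passed the filter, with 1 called higher (AGR2), beside 0.0101% of all genes. Their median log2 difference was 0.08, 13 were above 0, and groups did not overlap for 5 higher (20%), FOXA1 itself among them, and 2 lower (8%), 1 of which (AGR3) passed the filter only through the FOXA1 libraries. Over all genes these shares were 17.9% and 16.8%. The median was -0.10 without the library labelled RBPJ 1 and -0.02 without FOXA1 1, so it has no stable sign. Relative to the mean of the hairpin controls, the list median was -0.06 and -0.21 in the RBPJ libraries, -0.43 and -0.24 in the FOXA1 libraries, and -0.03 to 0.11 in the controls.

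Luminal progenitor genes pointed the other way from AGR2, towards lower values with RBPJ hairpins. Relative to the hairpin controls, their list median was -0.33 in the library labelled RBPJ 1 and -1.27 in RBPJ 2. It was -0.75 and -0.01 in the libraries labelled NFIB 1 and NFIB 2, and -0.0006 and -0.34 in KLF5 1 and KLF5 2. CD14, a receptor for bacterial lipid that also marks monocytes, was at 38.3 and 7.11 in the libraries labelled RBPJ 1 and RBPJ 2, against 56.6 and 63.1 with FOXA1 hairpins. The complement component C3 was at 28.6 and 5.69, against 50.7 and 40.6, and PROM1, the membrane protein CD133, at 13.7 and 4.27, against 17.1 and 25.5. SAA2, an acute-phase protein, was at 2.24 and 0.474, against 5.93 and 10.5, and passed the filter only through the FOXA1 libraries. CD14, C3 and PROM1 separated the groups, with limma adjusted p from 0.325 (CD14) to 0.535 (PROM1). Without the library labelled RBPJ 1, the differences were -2.91 for CD14, -2.79 for C3, -2.06 for PROM1 and -2.07 for RARRES1. Of 24 genes listed, 17 passed the filter, 13 were below 0 and the median was -0.50. The median was -0.80 without the library labelled RBPJ 1 and -0.58 without RBPJ 2, with 11 members below 0 in the latter. No member was called by limma, edgeR or DESeq2, while 5 had an unadjusted p under 0.05.

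Sterol genes were lower with RBPJ hairpins along nearly the whole pathway, without any single gene passing in limma. Of 31 genes of sterol synthesis, uptake and SREBP feedback listed, 30 were in the table and 29 passed the filter. Of these, 28 were below 0, the median was -0.84 against 0.02 over all genes, and 14 had an unadjusted p under 0.05, none of them higher. The groups did not overlap for 18 members (62.1%), all lower, beside 16.8% of all genes. By limma and edgeR 0 members passed, and by DESeq2 1 did (SQLE, adjusted p = 0.0394). Of the 2 groups compared, only the RBPJ libraries lay away from the controls: the list median relative to the hairpin controls was -0.40 and -1.12 in the libraries labelled RBPJ 1 and RBPJ 2, -0.02 and -0.08 in the FOXA1 libraries, and -0.09 to 0.25 in the controls. A low median was not particular to RBPJ hairpins. It was -0.77 and -0.21 in the libraries labelled NFIB 1 and NFIB 2, and 0.04 and -0.17 in KLF5 1 and KLF5 2. Without the library labelled RBPJ 1 the list median of the difference was -0.97, and without RBPJ 2 it was -0.34.

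At the head of the pathway, ACAT2, which makes acetoacetyl-CoA, was at 79.1 and 72.6 with RBPJ hairpins and 140.2 and 144 with FOXA1 hairpins. HMGCS1, the HMG-CoA synthase, was at 49.7 and 19.9, against 73.7 and 54.1. Hairpin controls for HMGCS1 ran from 46.5 to 91.8, so the library labelled RBPJ 1 lay inside their range and RBPJ 2 below it. For ACAT2, with controls at 141, 167 and 198, both RBPJ libraries lay below the range and the FOXA1 libraries lay at its lower end (-0.90 ± 0.29, limma adjusted p = 0.411).

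Further down the mevalonate branch, MVK, mevalonate kinase, was at 8.21 and 3.32 with RBPJ hairpins and 17.1 and 13.5 with FOXA1 hairpins. MVD, the decarboxylase, was at 8.45 and 8.54, against 9.88 and 28.5. IDI1, the isopentenyl diphosphate isomerase, was at 300.4 and 95.3, against 342 and 314, with hairpin controls at 390, 421 and 434, so that all 4 libraries lay below the controls for this gene. PMVK, phosphomevalonate kinase, was the exception among the tested members, at 47.7 and 71.1, against 52.0 and 57.1 (0.10 ± 0.26), and it turned to -0.19 without RBPJ 2.

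The enzymes that commit to sterols and shape them gave similar values. FDFT1, squalene synthase, was at 66.4 and 33.7 with RBPJ hairpins and 78.4 and 93.1 with FOXA1 hairpins. SQLE (ENSG00000104549), squalene epoxidase, was at 76.8 and 39.8, against 139.6 and 126, with hairpin controls at 95.7, 147 and 171. Its difference of -1.25 ± 0.28 had the smallest p of the list (limma adjusted p = 0.117), and against the controls it fell with RBPJ hairpins (-1.25, adjusted p = 0.0497) while the FOXA1 libraries lay inside the control range. DHCR7 (ENSG00000172893), the last reductase before cholesterol, was at 69.6 and 31.3, against 115 and 114, with hairpin controls at 107, 139 and 149.7. It likewise fell with RBPJ hairpins against the controls (-1.50, limma adjusted p = 0.0497), and its difference from FOXA1 hairpins was -1.27 ± 0.32 (0.215). MSMO1, a sterol methyl oxidase, was at 869 in the library labelled RBPJ 1, inside the control range of 788 to 1016, and at 188 in RBPJ 2, against 1185 and 865. LBR, a lamin receptor with sterol reductase activity, was at 73.4 and 20.9, against 100.1 and 87.1. NSDHL, a sterol dehydrogenase, at 53.0 and 65.0 against 94.8 and 90.1, was among the few members with the lower value in the library labelled RBPJ 1.

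Only some feedback and transport genes divided by hairpin. The log2 value of RBPJ 2 minus that of RBPJ 1 was -2.04 for INSIG1 and -0.90 for SREBF2. For STARD4, SCAP, TMEM97 and NPC1 it was -0.12, -0.18, 0.04 and -0.23. INSIG1, which retains SREBP in the endoplasmic reticulum, was at 91.0 in the library labelled RBPJ 1 and 21.3 in RBPJ 2, against 110 and 64.6 with FOXA1 hairpins. Its hairpin controls ran from 73.5 to 107, so the library labelled RBPJ 1 lay among them and RBPJ 2 far below, and the groups overlapped. SREBF2, which encodes the SREBP that drives the pathway, was at 191 and 102, against 140.2 and 182 (-0.20 ± 0.29), also with overlap. STARD4, a sterol carrier, was at 4.23 and 3.79, against 15.1 and 13.5, and passed the filter only through the FOXA1 libraries.

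**Figure D3:**
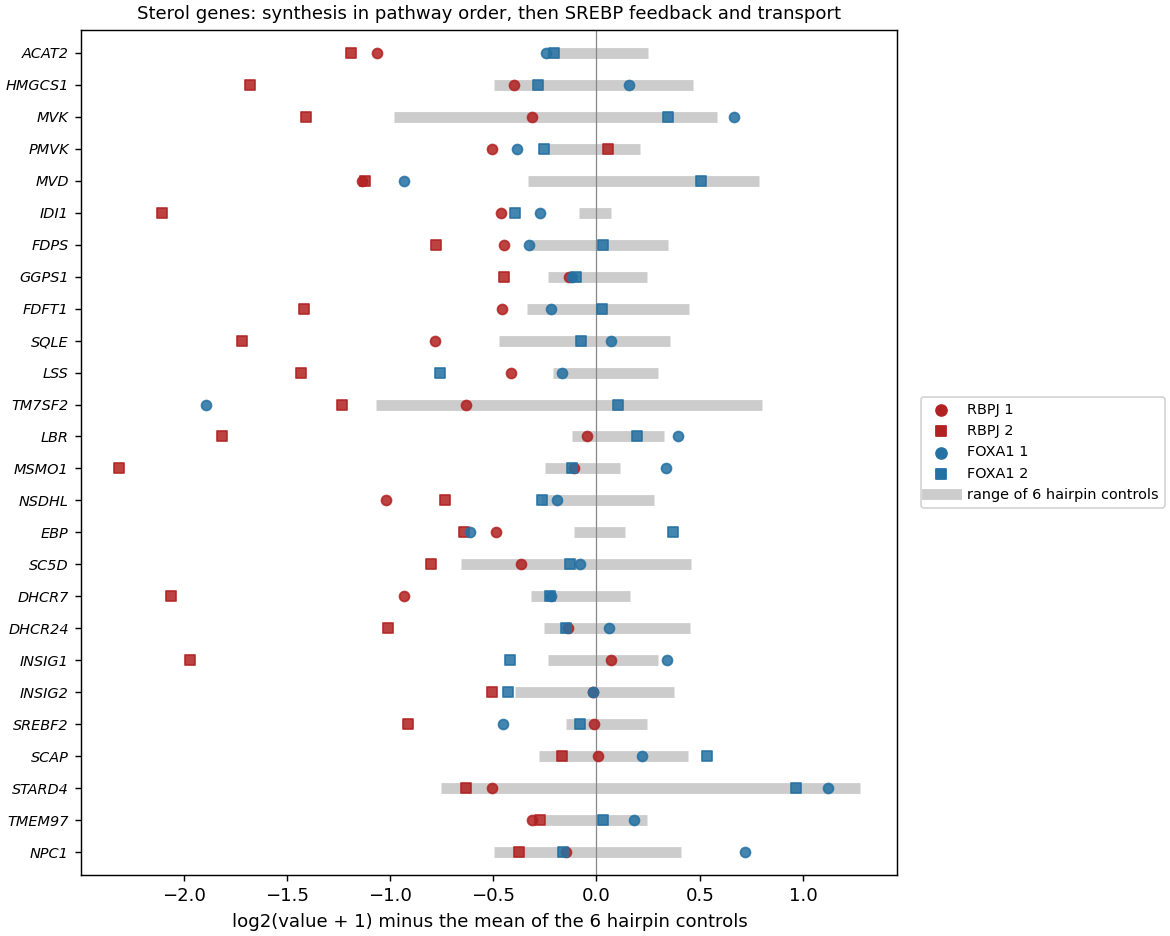
Sterol genes in pathway order and then feedback and transport, as log2(value + 1) minus the mean of the 6 hairpin controls (horizontal axis); red is RBPJ, blue is FOXA1, circles are hairpin 1, squares are hairpin 2 and grey bars span the controls. Red squares lie far to the left for IDI1, MSMO1, DHCR7 and INSIG1, red circles lie closer to the grey bars, and most blue symbols lie on or near them.

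Promoter windows are printed for MSMO1 and NSDHL because each carries several copies of CCAAT, the box of the factor NF-Y that accompanies SREBP at sterol genes. The window of SREBF2 is printed because it alone among the sterol genes with a window matched TCACNCCAC, a sterol response element. They are the 250 bases before the start in RefSeq on GRCh38.p14, chr4:165327419-165327668, chrX:152830813-152831062 and chr22:41832855-41833104, all on the plus strand. Capitals mark CCAAT on either strand (ATTGG where it lies on the other strand) and, in SREBF2, the sterol response element as well.
MSMO1: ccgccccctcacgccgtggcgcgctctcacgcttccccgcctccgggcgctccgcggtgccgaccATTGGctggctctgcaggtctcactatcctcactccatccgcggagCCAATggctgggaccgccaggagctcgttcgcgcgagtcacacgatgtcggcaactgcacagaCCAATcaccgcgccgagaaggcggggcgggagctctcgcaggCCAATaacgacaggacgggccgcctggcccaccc
NSDHL: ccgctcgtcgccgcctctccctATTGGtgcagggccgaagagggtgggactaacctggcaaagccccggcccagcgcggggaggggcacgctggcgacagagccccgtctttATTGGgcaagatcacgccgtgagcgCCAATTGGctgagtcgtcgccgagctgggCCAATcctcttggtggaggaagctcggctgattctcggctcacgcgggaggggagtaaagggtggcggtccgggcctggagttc
SREBF2: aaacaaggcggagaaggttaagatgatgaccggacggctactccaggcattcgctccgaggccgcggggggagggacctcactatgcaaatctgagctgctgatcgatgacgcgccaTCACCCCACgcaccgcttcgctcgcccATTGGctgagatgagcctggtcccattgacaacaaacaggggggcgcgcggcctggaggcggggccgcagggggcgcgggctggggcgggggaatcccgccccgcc
MSMO1 holds 4 such boxes and NSDHL 5, a pair of which overlap. CCAAT was found in the windows of 17 of 22 sterol genes with a window (77.3%), against 42.1% of all tested genes with one and 5 of 23 squamous genes (21.7%). The sterol response element was found for 1 of the 22 and for 1.17% of all tested genes. TGTTTAC, a forkhead motif, occurred for 1 of 19 mature luminal genes (5.26%), 2 of 23 squamous genes (8.7%) and 3.02% of all tested genes. These matches describe the reference sequence and show no binding.

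Fatty acid genes, which share SREBP control, were near the controls in the library labelled RBPJ 1 and low in RBPJ 2. SCD, the stearoyl-CoA desaturase, was at 158 and 25.1 in these libraries, against 158 and 176 with FOXA1 hairpins. FASN, fatty acid synthase, was at 252 and 104, against 332 and 337, and SREBF1, the SREBP of this branch, at 42.0 and 18.0, against 53.3 and 55.6. ACLY, which supplies cytosolic acetyl-CoA, was low in both RBPJ libraries, at 77.6 and 78.2 against 138 and 138. All 13 members in the table were tested and lay below 0, with a median of -0.41. None was called by limma, edgeR or DESeq2, and 4 had an unadjusted p under 0.05. Without the library labelled RBPJ 1, the list median was -1.07, with SCD at -2.68 and FASN at -1.67. Without RBPJ 2 the median was -0.09 and 9 of the 13 were below 0.

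**Figure D4:**
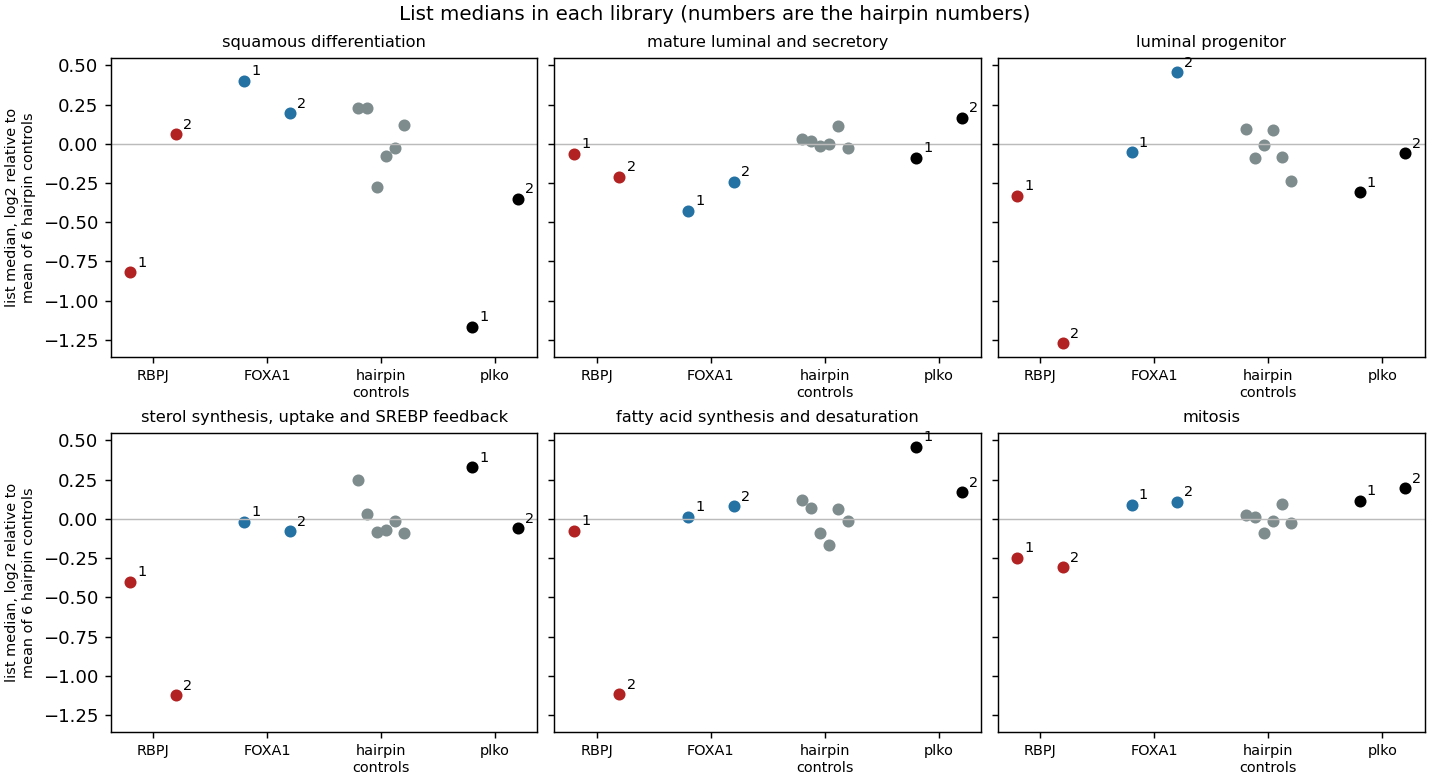
Median of 6 gene lists in each library, as log2 relative to the mean of the 6 hairpin controls (vertical axis), for RBPJ hairpins, FOXA1 hairpins, hairpin controls and plko; numbers beside points are library numbers. The library labelled RBPJ 1 is the lower RBPJ library for squamous genes (-0.82 against 0.06 in RBPJ 2), and RBPJ 2 the lower one for sterol genes (-1.12 against -0.40), while the FOXA1 libraries lie between -0.08 and 0.08 for sterol and fatty acid genes.

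Outside these lists, PABPC1 was called. PABPC1 (ENSG00000070756), the main cytoplasmic poly(A)-binding protein, was at 356 and 367 with RBPJ hairpins and 822 and 748 with FOXA1 hairpins, with hairpin controls at 509.7, 676 and 768 (-1.12 ± 0.20, limma adjusted p = 0.0324). The RBPJ libraries lay below every control for PABPC1, and only 1 FOXA1 library lay above the controls. PABPC3, a near copy of PABPC1 expressed mainly in testis, was at 71.6 and 62.1, against 186 and 155 (-1.34 ± 0.26, 0.0514). The last 500 bases of their transcripts share 0 of 451 windows of 50 bases, yet how the authors assigned reads of this family is not given, so both values remain uncertain.

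Several of the 8 calls did not outlast the loss of a library. PABPC1, AGR2 and S100A9 missed the threshold without RBPJ 2 (limma adjusted p 0.0674 to 0.103), and without FOXA1 1 these 3 genes and SERPINB3 did (0.0585 to 0.15). Without FOXA1 2 the genes SERPINB4 (0.00727) and SERPINB3 (0.0482) passed, and S100A7, S100A8, S100A9, PABPC1 and AGR2 did not (0.0782 to 0.588). Without the library labelled RBPJ 1 all 8 passed. SERPINB4 passed in every one of these 4 fits.

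Below the threshold, 3 further genes with lower values with RBPJ hairpins had a limma adjusted p of 0.0513. CLEC7A (ENSG00000172243), dectin-1, a receptor for fungal glucans, was at 25.9 and 9.01 with RBPJ hairpins and 59.3 and 66.1 with FOXA1 hairpins, with hairpin controls at 47.1, 53.4 and 64.8. PAPPA, a protease that releases insulin-like growth factors, was at 33.1 and 34.6, against 94.8 and 109.6, and GNE, the entry enzyme of sialic acid synthesis, at 76.6 and 41.3, against 156 and 213. For all 3 genes both RBPJ libraries lay below every control. The FOXA1 libraries lay near or just above the highest control for CLEC7A, and both lay above it (88.4) for PAPPA. With DESeq2 on recovered reads these 3 genes and PABPC3 passed, at adjusted p from 0.00139 to 0.0113.

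On the higher side, the 11 genes of smallest p after AGR2 had limma adjusted p from 0.117 to 0.215. GPX4, the enzyme that clears lipid peroxides, was at 399 and 392 with RBPJ hairpins and 119.8 and 227 with FOXA1 hairpins, with hairpin controls at 214, 269 and 337, so the RBPJ libraries lay above the controls. SWI5, a recombination repair factor, was at 71.1 and 129, against 33.6 and 37.6, and KDELR3, a receptor that returns chaperones to the endoplasmic reticulum, at 109 and 124, against 52.7 and 39.1. DESeq2 called these 3 genes, at adjusted p of 0.0148, 0.0294 and 0.0376. DPM2, a subunit in dolichol-linked mannose synthesis, was at 16.4 and 21.3, against 4.61 and 6.01, and the palmitoyltransferase gene ZDHHC4 at 25.6 and 47.9, against 15.1 and 7.51. ACBD6, an acyl-CoA-binding protein, was at 117 and 126, against 54.0 and 72.1, and DUS4L, of the dihydrouridine synthase family, at 47.5 and 44.1, against 21.7 and 15.0. In FOXA1 2, the shallowest of the 4 libraries, DPM2 had 4 reads, ZDHHC4 5 and DUS4L 10, so these values also rest on few reads. The others rest on fewer still in that library. The histone gene H2AC8 had 50 and 24 reads in the libraries labelled RBPJ 1 and RBPJ 2, against 3 and 0 with FOXA1 hairpins. The adhesion gene ESAM had 55 and 49 reads, against 8 and 0, the deacetylase gene HDAC11 40 and 15, against 3 and 0, and the excision repair gene XPA 61 and 35, against 8 and 1. H2AC8 and HDAC11 passed the filter only through the RBPJ libraries, where they were high. A count of 0 in FOXA1 2 allows a value of up to 4.51.

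Components and targets of the Notch pathway showed no common direction. Of 45 genes listed, 33 passed the filter, 17 were below 0 and the median was -0.01, with 2 members higher and 2 lower at an unadjusted p under 0.05. Of the 2 lower, 1 is RBPJ itself, the hairpin target. No member was called by limma, edgeR or DESeq2. HES1, a classical Notch target, was at 277 and 229 with RBPJ hairpins and 236 and 275 with FOXA1 hairpins (-0.02 ± 0.27), all close to the hairpin control range of 256 to 307. NUMBL, which encodes a Numb-like Notch inhibitor, was at 19.2 and 28.0, against 10.5 and 6.01, and APH1A, a subunit of the secretase that cuts the receptor, at 174 and 166, against 88.2 and 97.6. DTX4, a ligase of the Deltex family, was at 11.9 and 12.8, against 28.3 and 25.5. These 3 genes separated the groups with limma adjusted p of 0.325, 0.411 and 0.519. ADAM10, the protease of the preceding cut, overlapped at 104 and 59.7, against 98.1 and 116.

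Mitotic genes were slightly but widely lower with RBPJ hairpins than with FOXA1 hairpins. Relative to the hairpin controls, the list median was -0.25 and -0.31 in the libraries labelled RBPJ 1 and RBPJ 2. It was -0.51 and -0.01 in NFIB 1 and NFIB 2, and -0.19 and -0.02 in KLF5 1 and KLF5 2. Of 30 tested, 29 were below 0, the median was -0.33, and the groups did not overlap for 19 lower (63.3%) and 1 higher (3.33%), beside 16.8% and 17.9% of all genes. CENPE, a kinetochore motor, was at 34.8 and 9.48 with RBPJ hairpins and 62.6 and 64.6 with FOXA1 hairpins (-1.74 ± 0.41, limma adjusted p = 0.145). ANLN, anillin, was at 189 and 191, against 319 and 334, TOP2A, topoisomerase II alpha, at 125 and 74.4, against 188 and 168, and the spindle gene ASPM at 39.8 and 34.1, against 69.8 and 63.1. Replication genes leaned the other way, with a median of 0.12 and 19 of 25 above 0, with 6 below 0. edgeR put 9 of them below 0, and without FOXA1 2 the limma median was 0.06 with 12 below 0. RFC4, a clamp loader subunit, was at 305 and 256, against 165 and 162, and E2F1, a factor of S-phase entry, at 142 and 102, against 76.4 and 75.1. MCM5, of the replicative helicase, was at 109 and 135, against 73.1 and 85.6, and GINS2 at 43.0 and 67.8, against 35.6 and 31.5. No mitotic or replication gene was called by limma, edgeR or DESeq2, with 9 mitotic genes lower and 5 replication genes higher at an unadjusted p under 0.05. CENPE (-2.62, limma adjusted p = 0.000686) and TOP2A (-1.25, 0.0243) passed without the library labelled RBPJ 1.

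Interferon genes separated mainly through RBPJ 2. IFIT2 was at 27.6 and 3.32 in the libraries labelled RBPJ 1 and RBPJ 2, against 32.9 and 45.1 with FOXA1 hairpins, and IFIT3 at 48.5 and 7.11, against 78.4 and 63.1. RIGI, the sensor of viral RNA, was at 19.9 and 13.3, against 46.8 and 46.6 (-1.46 ± 0.34, limma adjusted p = 0.136), and SAMD9 at 90.3 and 119, against 218 and 231. Of 30 members tested, 23 were below 0 with a median of -0.49, and the median depended on single libraries. It was -0.02 without RBPJ 2, -0.21 without FOXA1 2 and -0.87 without the library labelled RBPJ 1, where RIGI (limma adjusted p = 0.028), IFIT2 (0.0103) and IFIT3 (0.0174) passed. With all 4 libraries, neither the interferon list nor the following lists held a gene called by limma, edgeR or DESeq2, and each had at most 5 members at an unadjusted p under 0.05. Medians were -0.25 for basal epithelium (18 tested), -0.22 for mesenchymal transition and matrix (13), -0.48 for sterol efflux (4, and 0.14 with no filter on low values), -0.07 for NF-kB and inflammatory cytokines (17), -0.02 for the unfolded protein and integrated stress response (26), -0.18 for heat shock proteins (13), -0.15 for hypoxia and glycolysis (19) and 0.09 for EGF ligands and the MAPK response (23). Leaving out 1 library at a time gave medians of -0.73 to 0.36 for basal epithelium, -0.40 to 0.01 for NF-kB, -0.24 to 0.20 for the stress response, -0.61 to 0.33 for heat shock proteins, -0.27 to 0.08 for hypoxia and -0.03 to 0.43 for EGF ligands, so none of these 6 has a stable sign. The range was -0.40 to -0.04 for mesenchymal transition and -0.50 to -0.04 for sterol efflux. Members of these lists that passed only without the library labelled RBPJ 1 rest on a fit with a single RBPJ library. Calls were more frequent over all genes in that fit too, so they are not read as results of the lists.

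Single members of those lists that separated the groups are given as values. KRT14, a basal keratin, was at 33.6 and 25.6 with RBPJ hairpins and 85.6 and 79.6 with FOXA1 hairpins, and TNC, a matrix glycoprotein, at 32.1 and 37.9, against 65.2 and 79.6. S100A4, an S100 protein of motile cells, was at 24.4 and 14.7, against 46.8 and 43.6, and TAGLN, an actin-binding protein, at 1.99 and 10.4, against 19.1 and 13.5. PPP1R15A, the phosphatase subunit that ends the integrated stress response, was at 34.1 and 70.7, against 14.5 and 18.0, while HSP90B1, the chaperone of the endoplasmic reticulum, was at 224 and 176, against 313 and 365. The lowest limma adjusted p among these 6 genes was 0.328, for PPP1R15A.

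**Figure D5:**
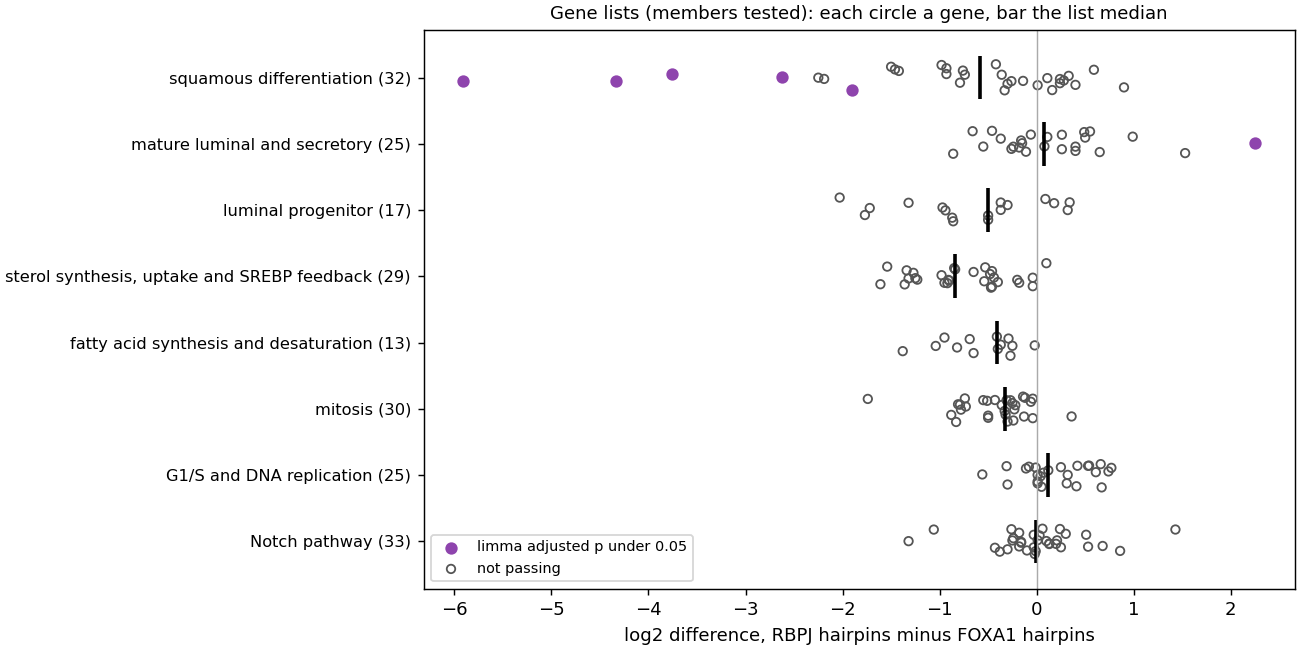
Log2 difference of RBPJ hairpins minus FOXA1 hairpins (horizontal axis) for each tested member of 8 gene lists (rows, with the number tested); black bars are list medians and filled circles passed at a limma adjusted p under 0.05. Squamous genes spread down to -5.91 for S100A7 around a median of -0.58, mature luminal genes lie around 0.08 with AGR2 at 2.25, and sterol genes lie around -0.84 with no filled circle.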

How the data were processed

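RNA was measured in 16 HCC70 libraries, made by barcoding 3′ cDNA of 12 samples at a time and amplifying it by in vitro transcription after CEL-Seq, per the labels' protocols. Poorly represented samples were run again, per the same protocols, which name neither those samples nor the members of a barcoding batch. The authors deposited a normalised signal for each gene, called DESeq2-normalised, and the submitters' processing notes name the build GRCh37. The aligner, counting tool, strand use and molecular identifiers are not stated in those notes or labels. Dividing by the value of 1 read gave whole reads for 100% of values within 0.05 of a read. Of the table's columns, 2 match no sample described here and were not used. Symbols were found for 11259 of 11282 identifiers, and 1396 genes were removed by the filter.

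The main test was limma 3.58.1 (R 4.3.3) with a mean-variance trend on log2(value + 1), with a factor of 8 constructs over 16 libraries, so that 8 pairs of libraries gave the spread. Tests were 2-sided. Fold changes on this scale understate changes of low genes, and p-values were adjusted over all genes tested. Recovered reads were tested with edgeR 4.0.16 and DESeq2 1.42.0 as alternatives. Genes named are the targeted genes, the 12 of smallest p in each direction, members of the squamous, luminal and sterol lists, and up to 4 members of smallest p of each other list, besides those that pass. A few genes under this rule are not reported here. The comparison, the lists and the members were chosen with earlier results of these data known. Library numbers do not pair the samples, since each number marks a different construct in every group.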

Additional observations from a re-analysis of the deposited data

Results flagged for a closer look

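Among the 6 hairpin controls, 2 of 29 items tested had a library far from the other 5, with a gap to the nearest over Dixon's critical share of the group's range. ZDHHC4 was at 27.2 in shRFP 1, the highest control, with a gap of 0.675 of the range, and RBPJ 2 at 47.9 lay above it. The sterol list median was 0.25 in shRFP 1 relative to the mean of the hairpin controls, with a gap of 0.628. Chance flags about 1 in 20 such groups.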

How the results depend on the processing

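Of 1729 values recomputed for 97 genes under 18 alternatives, 1618 kept their direction and side of the threshold, 74 newly passed, 20 no longer passed and 17 changed sign. The total of 8 genes (1 higher, 7 lower) became 5 in the 4 libraries alone (4 lower), 20 with DESeq2 (5 higher, 15 lower) and, with the spread taken from the 4 targeted groups only, an alternative chosen after seeing the data, 4 (0 higher, 4 lower). Genes lower numbered 11 with a pseudocount of 5, with no filter, with a value of 20 or more in 2 libraries, and with libraries re-centred on their median. Leaving out 1 library gave totals of 3 to 154, with 0 to 30 genes higher and 2 to 124 lower. Leave-one-out ranges of the list medians were -0.79 to -0.09 for squamous, -0.10 to 0.25 for mature luminal and -0.97 to -0.34 for sterol genes. The luminal median was 0.28 with no filter and 0.25 with thinned reads. S100A9 and PABPC1 missed the threshold with the controls as 1 group (limma adjusted p 0.56 and 0.076) and in the 4 libraries alone (0.0777 and 0.677). DESeq2 gave no adjusted p for S100A7. Signs turned with DESeq2 for SPRR2A (0.05) and KLK10 (0.00), and with thinned reads for SPRR1B (-0.37). Ranges over the 4 leave-one-out fits that include a change of sign were -3.33 to 0.32 for KRT6A, -3.84 to 1.01 for SPRR2A, -2.69 to 3.18 for SPRR1B, -2.19 to 0.32 for PI3, -2.77 to 0.90 for KLK10, -0.41 to 1.42 for KRT8, -0.26 to 1.56 for KRT18, -1.68 to 0.36 for AZGP1, -1.93 to 0.11 for INSIG1, -0.65 to 0.25 for SREBF2, -0.19 to 0.38 for PMVK and -0.16 to 0.12 for HES1. The cause was not tested. With a replicate block 1 gene was higher and 9 lower, all 8 calls passing again, but the numbers do not pair the samples: deviations of the RBPJ and FOXA1 libraries correlated at -0.0114 across genes. FOXA1 2 is the shallowest of the 4 libraries compared, and 1 read there is worth 1.50, which limits what can be said of low genes.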
